A study of Homo sapiens with 6 samples.

Results

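CXCL8 (interleukin 8) and the GRO chemokines CXCL1, CXCL2 and CXCL3 are small secreted proteins that attract neutrophils. Their genes were followed here in cells labelled as the liver cancer line HepG2 and depleted of ARHGEF2. The 4 genes were taken by name from the gene table, and 3 of them had a row among its 27605 genes. CXCL1 had no row and so no level here, and only its position and sequence were used. The set was chosen by earlier results of the same libraries, namely the difference in CXCL8 level between knockdown and control. The levels and fold changes of these genes are therefore given as a description. They were part of the fit over all genes, but no result is read from their calls.

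The cells were labelled HepG2, an established human hepatoma line, and were grown in DMEM with 10% fetal bovine serum. The shNC group held 3 libraries labelled with wild-type genotype and served as the control of the knockdown. The shARHGEF2 group held 3 libraries of cells given lentivirus to knock down ARHGEF2, a guanine nucleotide exchange factor that activates the small GTPase RhoA and binds microtubules. No cytokine or drug was named for either group. Neither the number of hairpins nor whether the 3 libraries of a group came from separate cultures was given, so every error below measures the spread between libraries, which may be technical. The sequenced RNA was poly(A)-selected, and the levels were given as FPKM, fragments per kilobase of transcript scaled to the library's size. Such levels can be compared between genes, and less exactly between libraries, whose summed FPKM ran from 321180 to 350261.

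All 4 chemokines carry a glutamate-leucine-arginine motif before the CXC cysteines and signal through the receptor CXCR2, and CXCL8 also through CXCR1. Neutrophils carry both receptors on their surface. In epithelial and tumour cells their genes are kept low at rest and are switched on by interleukin 1, tumour necrosis factor and related signals, through the transcription factors NF-kB, AP-1 and C/EBP. Their messenger RNAs hold AU-rich elements and are removed quickly, by decay factors such as ZFP36, unless the p38 kinase pathway protects them. In the liver these proteins are known for bringing neutrophils into inflamed tissue and for promoting the growth of blood vessels.

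On GRCh38, GENCODE 29 places CXCL8 at chr4:73740506-73743716 on the plus strand, CXCL3 at chr4:74036589-74038807 on the minus strand and CXCL2 at chr4:74097035-74099293 on the minus strand. CXCL1 lies between CXCL8 and CXCL3, at chr4:73869393-73871242 on the plus strand. The deposited table held no coordinates. The promoters are shown because 1 of the motifs searched, the kappaB core, matched in all of them, and no other motif did. Each line gives the 150 bases before the RefSeq start on the gene's own strand, with matches to the motifs searched in capitals (build GRCh38.p14). For CXCL8, CXCL2 and CXCL3 the GENCODE gene span begins inside the stretch shown, so positions depend on the start used.
CXCL8, chr4:73740419-73740568, plus strand: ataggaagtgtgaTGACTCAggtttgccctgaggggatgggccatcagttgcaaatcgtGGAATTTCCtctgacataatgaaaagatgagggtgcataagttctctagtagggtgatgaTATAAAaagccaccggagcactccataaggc
CXCL2, chr4:74099196-74099345, minus strand: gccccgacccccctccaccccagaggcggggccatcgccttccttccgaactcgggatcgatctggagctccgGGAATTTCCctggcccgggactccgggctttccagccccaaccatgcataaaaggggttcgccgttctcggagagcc
CXCL3, chr4:74038690-74038839, minus strand: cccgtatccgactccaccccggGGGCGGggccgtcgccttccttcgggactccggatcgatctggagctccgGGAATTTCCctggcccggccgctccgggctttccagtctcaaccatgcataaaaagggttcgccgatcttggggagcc

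All 4 promoters, that of CXCL1 included, held the kappaB core GGAATTTCC once, starting at position -91 in CXCL8, -77 in CXCL2 and -78 in CXCL1 and CXCL3, counted from the base before the start as -1. On either strand, 0.461% of the 35116 RefSeq promoter windows of 300 bases held this core. CXCL8 alone among the 4 held the AP-1 motif TGANTCA, at -137, and the TATA box TATAAA on the gene strand, at -31. The shares of all promoters were 7.71% for the AP-1 motif and 7.33% for the TATA box. CXCL1 and CXCL3 held the Sp1 motif GGGCGG at -128, as 45% of promoters did. The C/EBP motif TTGCNNAA, found in 10.5% of promoters, was in the window of CXCL2 only, at -188, outside the stretch printed. A missing match says only that these letters were not in the window.

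Over the printed stretches the 2 measured GRO promoters were 86.1% identical to each other, and CXCL8 was 41.4% identical to CXCL2 and 41.7% to CXCL3. The coding sequences behaved alike, with 94.4% identity between CXCL2 and CXCL3 over 324 bases. CXCL8 was 51.8% identical to CXCL2 and 52.9% to CXCL3. The longest run of identical bases between the transcripts of CXCL2 and CXCL3 was 97 nt, and that between CXCL1 and CXCL2 was 77 nt, so a read of 150 bases would span a difference in either pair. How reads that aligned to more than 1 gene were counted was not given in the sources used here, and the levels of CXCL2 and CXCL3 are therefore less certain than that of CXCL8, whose longest run shared with CXCL3 was 18 nt.

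The table holds no read counts. Its low values fall in steps, and from the size of a step the libraries were estimated to hold between 39700000 and 46300000 reads. The reads were paired, so a step may instead stand for 1 fragment, which was not checked. At these depths, CXCL8 stood for about 3432 to 11191 reads per library, CXCL2 for 276 to 387 and CXCL3 for 69 to 130, so the GRO genes were measured less precisely. ARHGEF2 itself was 13.8 ± 0.70 FPKM in shNC and 4.36 ± 0.42 FPKM in shARHGEF2 (SD, n = 3 each), and all knockdown libraries lay below all controls (log2 fold change -1.47 ± 0.11 SE, adjusted p = 0.00244, limma, 0.0701 with no filter on low values and 0.0716 with the replicate number as a block). The hepatocyte markers went against the label: of 20, only VTN reached a mean of 1 FPKM (5.51 to 6.60), AFP stayed at or under 0.0703 FPKM and HNF4A at or under 0.0956, and ALB, TTR and APOB had no row. The sum of that list was 6.02 to 6.28 FPKM in shNC and 6.75 to 7.79 FPKM in shARHGEF2. The cells are therefore called by their label only. shNC replicate 3 was the only library nearer to the other group than to its own. Its root mean square difference over 12291 genes, in log2(FPKM + 1), was 0.290 from the mean of the other shNC libraries and 0.267 from the mean of the shARHGEF2 libraries, which averages 1 library more. Each other library lay nearer to its own group, shARHGEF2 replicate 1 only just (0.313 against 0.316). Their own-group distances ran from 0.249 (shARHGEF2 replicate 3) to 0.325 (shNC replicate 2), so that of shNC replicate 3 was not unusual.

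CXCL8 was the most abundant of the measured members and was higher on average in the knockdown. Its level was 46.1, 45.3 and 103.7 FPKM in shNC replicates 1 to 3, and 103.8, 150.5 and 136.2 FPKM in shARHGEF2 replicates 1 to 3. The groups did not overlap, but shNC replicate 3 lay just below shARHGEF2 replicate 1, while the other controls lay far below. The means were 65.0 ± 33.5 FPKM in shNC and 130.2 ± 23.9 FPKM in shARHGEF2 (SD, n = 3 each), a ratio of 2.00. In bulk RNA, fewer cells that express a gene and less RNA per cell cannot be told apart. On the log2(FPKM + 1) scale, where low genes change less than on FPKM itself, the fitted fold change was 1.085 ± 0.353 (SE).

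**Figure D1:**
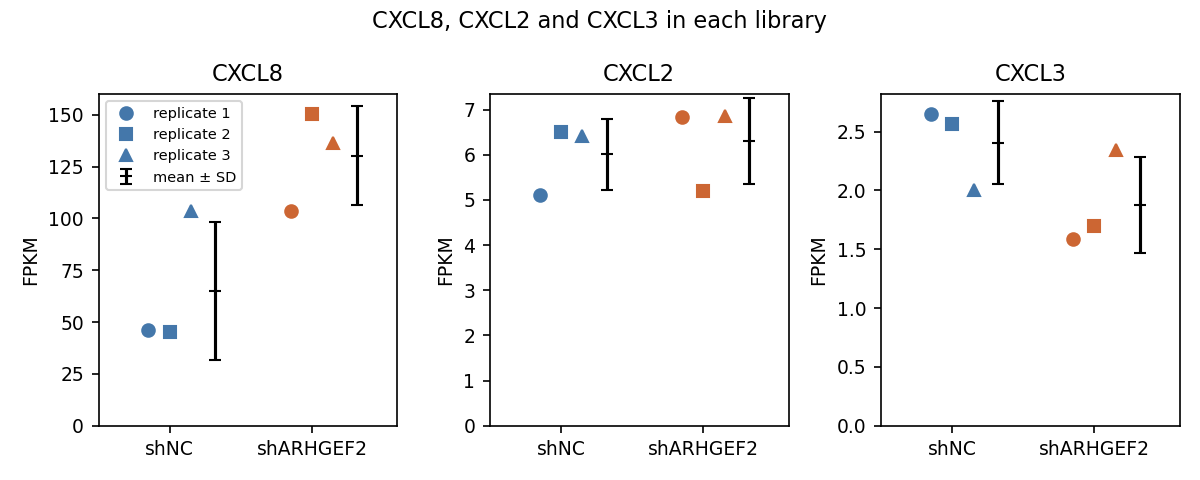
Level of CXCL8, CXCL2 and CXCL3 (vertical axis, FPKM, from 0, with its own range in each panel) in the 3 shNC (blue) and 3 shARHGEF2 (orange) libraries, with marker shapes for replicate numbers and bars for the mean ± SD. shNC replicate 3 lies with the knockdown for CXCL8 (103.7 against 103.8 to 150.5 FPKM), and the groups overlap for CXCL2 and CXCL3.

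CXCL2 did not separate the groups. Its level was 5.11, 6.51 and 6.43 FPKM in shNC and 6.84, 5.20 and 6.85 FPKM in shARHGEF2. The lowest library of each group was at about the same level, and the ranges nearly coincided. The means were 6.02 ± 0.79 and 6.30 ± 0.95 FPKM (SD, n = 3 each), with a fitted log2 fold change of 0.05 ± 0.14 (SE).

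CXCL3 was the least abundant of the 3. Its level was 2.65, 2.57 and 2.00 FPKM in shNC and 1.58, 1.70 and 2.35 FPKM in shARHGEF2. shNC replicate 3 was the lowest control and lay below shARHGEF2 replicate 3, so the groups overlapped. The means were 2.41 ± 0.35 and 1.88 ± 0.41 FPKM (SD, n = 3 each), with a fitted log2 fold change of -0.25 ± 0.15 (SE) against a log2 ratio of the mean FPKM of -0.36.

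At an adjusted p under 0.05 in limma over all 12291 genes, 0 of the 3 members were called, where 0.277% of genes were. At an unadjusted p under 0.05 the count was 1 of 3, CXCL8, where 13.7% of genes were. CXCL8 was also the 1 member of 3 whose groups did not overlap, as was the case for 20.5% of genes. Nothing is read from these counts, since the same contrast chose the members.

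Without shNC replicate 3, the ratio of the mean CXCL8 levels was 2.85 and the fitted log2 fold change 1.47 ± 0.16 (SE). Leaving out any other library gave fold changes from 0.885 to 1.24. The value of CXCL2 ran from -0.042 to 0.168 as each library was left out, turning sign without shNC replicate 1, shARHGEF2 replicate 1 or shARHGEF2 replicate 3. That of CXCL3 ran from -0.362 to -0.176.

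**Figure D2:**
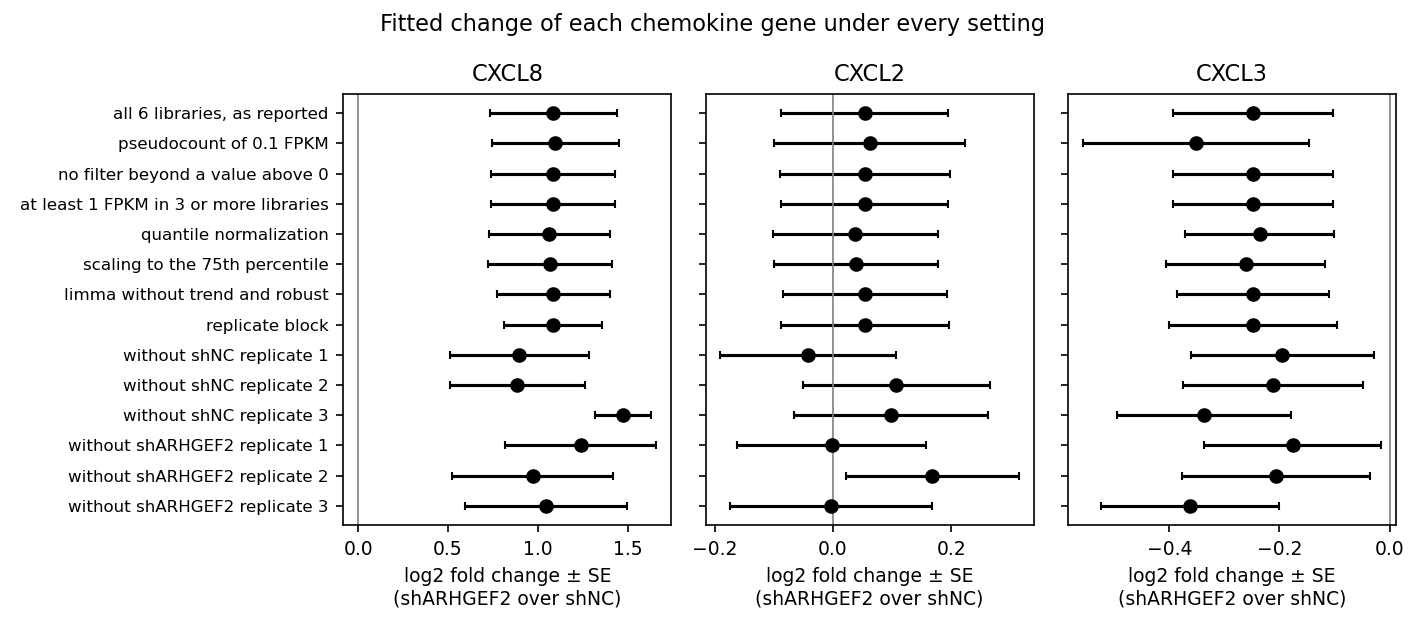
Fitted log2 fold change, shARHGEF2 over shNC, with its standard error (horizontal axis, own range in each panel) for CXCL8, CXCL2 and CXCL3 under each processing setting and with each library left out (vertical axis). The point of CXCL8 without shNC replicate 3 lies farthest from 0, at 1.47, with the shortest error bar of that panel.

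The make-up of the chemokine pool therefore differed between libraries. CXCL8 exceeded CXCL2 by 9.0, 7.0 and 16.1 times in shNC and by 15.2, 29 and 19.9 times in shARHGEF2. It made up 85.6%, 83.3% and 92.5% of the summed FPKM of the 3 genes in shNC, and 92.5%, 95.6% and 93.7% in shARHGEF2. shNC replicate 3 matched shARHGEF2 replicate 1 in this share and lay above the other controls. The sum was 73.4 ± 33.5 FPKM in shNC and 138.4 ± 23.4 FPKM in shARHGEF2 (SD, n = 3 each), a log2 ratio of 0.91.

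By its mean level among the 27605 genes, CXCL8 ranked 663rd in shNC and 322nd in shARHGEF2. CXCL2 ranked 4905th and 4808th, and CXCL3 ranked 7615th and 8324th. Over the 6 libraries, on log2(FPKM + 1), Pearson's r was 0.18 between CXCL8 and CXCL2, -0.72 between CXCL8 and CXCL3 and -0.11 between CXCL2 and CXCL3. With each group's mean removed the same values were 0.06, -0.44 and 0.003. These are descriptions over 6 points that share library and depth.

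The genes whose pattern was most like that of CXCL8 were GFPT2, an enzyme of hexosamine synthesis (r = 0.999), AL162231 (0.997) and CLDN3, a tight junction protein (0.995), among 10208 genes whose mean reached 1 FPKM. The correlations are across the 6 libraries and are the highest of those 10208. GFPT2 stood at 5.81, 5.74 and 8.61 FPKM in shNC and at 8.61, 10.0 and 9.64 FPKM in shARHGEF2. As for CXCL8, shNC replicates 1 and 2 were low and shNC replicate 3 reached the level of shARHGEF2 replicate 1. CLDN3 had 6.31, 6.12 and 8.65 FPKM in shNC and 8.42, 9.44 and 9.53 FPKM in shARHGEF2, with shNC replicate 3 above 1 knockdown library.

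**Figure D3:**
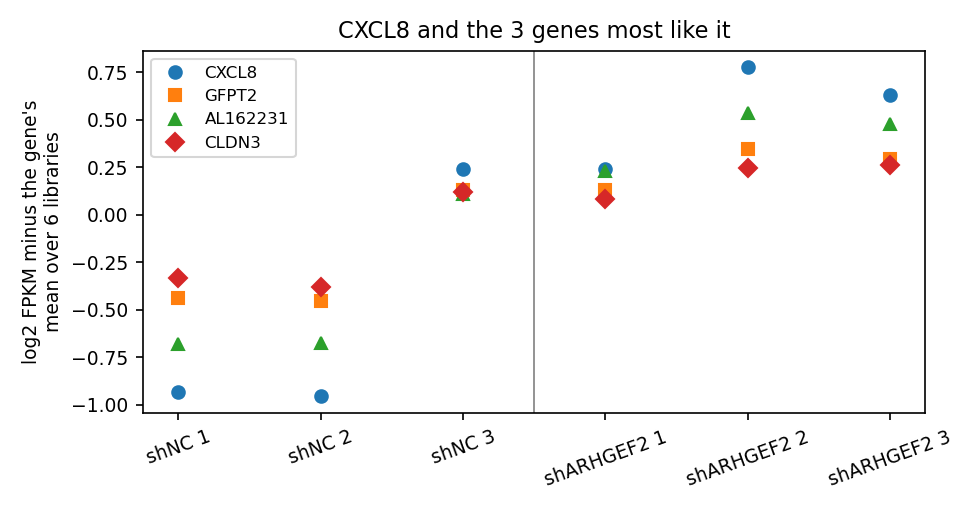
Level of CXCL8, GFPT2, AL162231 and CLDN3 in each library (horizontal axis), as log2 FPKM minus the mean of that gene over the 6 libraries (vertical axis), with a grey line between the groups. shNC replicate 3 lies near shARHGEF2 replicate 1 for all 4 genes, and CXCL8 has the widest spread.

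CXCL2 was most like AL137782 (r = 0.985), the actin regulator MICAL2 (0.983) and the kinase TNK1 (0.978). CXCL3 was most like COQ9, a factor of coenzyme Q synthesis (0.991), C1orf131 (0.984) and the antisense RNA HOXA10-AS (0.979). These 9 genes and their order rest on 6 libraries. None was among the 3 most like another member.

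Among the 9 chemokine genes that passed the filter of a mean of 0.5 FPKM, CXCL8 was second to CCL5, a chemokine of T cells and monocytes. CCL5 was at 260.6 to 289.2 FPKM in shNC and at 328.5 to 368.5 FPKM in shARHGEF2 (log2 fold change 0.37 ± 0.09 SE, adjusted p = 0.127, limma). Next came CXCL16, at 8.22 to 11.7 FPKM over the 6 libraries. CXCL2 and CXCL10, an interferon-induced attractant of T cells, followed, with ranges that overlapped in both groups. CXCL3 then overlapped CCL3L3, a near copy of CCL3, in both groups, and lay above CXCL11 at 1.07 to 1.65 FPKM and CCL26 at 0.251 to 1.32 FPKM. CCL5, CXCL8 and CXCL16 did not overlap their neighbours in this order in either group.

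None of the other CXC chemokines was called. Of 13, 5 had a row and 3 were tested, and all 3 had negative fold changes, with a median of -0.11 beside -0.002 over all genes tested. CXCL11 stood at -0.26 ± 0.11 (SE), CXCL10 at -0.11 ± 0.14 and CXCL16, a membrane-bound ligand of CXCR6, at -0.09 ± 0.14. CXCL11 was the 1 with an unadjusted p under 0.05, beside 13.7% of all genes. Of 31 CC and CX3C chemokines 12 had a row, 3 were tested and 0 were called in limma, with 2 under an unadjusted p of 0.05 (13.7% of all genes), CCL5 and CCL3L3 (-0.43 ± 0.18 SE). The untested ones, such as CCL2 and CCL20, stayed at or under 0.643 FPKM in every library. In the same stretch of chromosome 4, CXCL6, PF4V1, PF4, PPBP and CXCL5 had no row.

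CXCR1 and CXCR2, the receptors of these chemokines, had no row either. Of 8 CXC receptor genes 4 had a row and 2 were tested: CXCR4, the receptor of CXCL12, and ACKR3, which takes up CXCL12 without G protein signalling. CXCR4 was at 25.2 to 31.6 FPKM with a log2 fold change of -0.10 ± 0.10 (SE), and ACKR3 at 8.99 to 11.8 FPKM with 0.04 ± 0.12, and neither had an unadjusted p under 0.05. Heparan sulfate on syndecans and glypicans holds chemokines at the cell surface. All 7 tested carriers had positive fold changes, from 0.04 to 0.60 with a median of 0.16, and 0 were called in limma (2 at an unadjusted p under 0.05, beside 13.7% of all genes). The abundant SDC4 was at 121.2 to 142.5 FPKM with 0.04 ± 0.09 (SE), SDC1 had 0.12 ± 0.09, SDC3 0.16 ± 0.09 and GPC1 0.24 ± 0.13.

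Of the cytokines that induce CXCL8, IL1A and IL1B passed the filter. Tumour necrosis factor (TNF), IL17A, IL17C and LTA were not among the genes tested. Neither were the receptor genes IL1R1 and IL1RAP. IL1A stood at 21.8, 24.5 and 31.97 FPKM in shNC and at 21.7, 36.1 and 27.8 FPKM in shARHGEF2. IL1B stood at 28.2, 31.8 and 44.4 FPKM in shNC and at 34.5, 45.2 and 40.9 FPKM in shARHGEF2. The groups overlapped for both, and shNC replicate 3 was the highest control. Of 20 genes for inducing cytokines and their receptors 7 were tested, 3 higher and 4 lower with a median log2 fold change of -0.01, and 0 had even an unadjusted p under 0.05 in limma. In each of the 7, shNC replicate 3 was the highest control, including the receptors TNFRSF1A (-0.07 ± 0.17 SE) and LTBR (-0.02 ± 0.09).

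Signals from these receptors pass through adaptors and kinases. Of 17 tested, 6 were higher and 11 lower, with a median log2 fold change of -0.02, and 0 were called in limma (2 at an unadjusted p under 0.05, beside 13.7% of all genes). IRAK2, a kinase of the interleukin 1 receptor complex, was at 16.9, 19.6 and 32.2 FPKM in shNC and at 29.4, 35.8 and 33.5 FPKM in shARHGEF2. shNC replicate 3 again lay within the knockdown range, and the fold change was 0.55 ± 0.22 (SE). TRAF2, an adaptor of the tumour necrosis factor receptors, had 0.305 ± 0.11 (SE, adjusted p = 0.277, limma) with no overlap. IRAK1 (-0.01 ± 0.09) and TRADD (-0.02 ± 0.11) were near 0.

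NF-kB binds the kappaB core that the 4 promoters share. Of 13 tested genes for its subunits and inhibitors, 10 were higher and 3 lower, with a median log2 fold change of 0.12 and a range of -0.18 to 0.37, and 0 were called in limma (2 at an unadjusted p under 0.05, beside 13.7% of all genes). NFKB2, a precursor subunit, had 0.29 ± 0.14 (SE), and NFKBIA, the inhibitor that NF-kB itself induces, had 0.21 ± 0.11. BCL3, a nuclear partner of NF-kB, had 0.11 ± 0.10 and the inhibitory adaptor TNIP1 had 0.12 ± 0.11.

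For AP-1, ATF and C/EBP factors, 13 of 15 tested genes were higher and 2 lower, with a median log2 fold change of 0.19. None was called in limma, and 5 had an unadjusted p under 0.05, beside 13.7% of all genes. JUNB, an AP-1 subunit and the most abundant, was at 540.6, 491.1 and 691.4 FPKM in shNC and at 760.0, 687.7 and 708.8 FPKM in shARHGEF2. Its groups overlapped through shNC replicate 3 (0.34 ± 0.13 SE, adjusted p = 0.294, limma). JUND had 0.29 ± 0.10, CEBPB 0.20 ± 0.10 and JUN 0.19 ± 0.13. The fold changes ran from -0.11 to 1.13, the highest being that of DDIT3, a C/EBP family factor of the stress response, named here after its values were seen. It was at 8.77, 7.73 and 15.2 FPKM in shNC and at 13.8, 39.0 and 23.5 FPKM in shARHGEF2, with shNC replicate 3 above 1 knockdown library (1.129 ± 0.42 SE, adjusted p = 0.336, limma). In 14 of the 15, shNC replicate 3 was the highest control.

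Factors that set the half-life of AU-rich messenger RNAs were split, with 7 of 18 tested higher and 11 lower, a median log2 fold change of -0.03 and a range of -0.60 to 0.78. None was called in limma, and 4 had an unadjusted p under 0.05, beside 13.7% of all genes. DUSP1, the phosphatase that turns off p38, was at 94.9, 98.0 and 117.1 FPKM in shNC and at 137.9, 137.9 and 139.2 FPKM in shARHGEF2, with no overlap (0.42 ± 0.10 SE, adjusted p = 0.126, limma). YBX1, an mRNA-binding protein, had -0.26 ± 0.11, the decay factor KHSRP had -0.15 ± 0.08 and MAPKAPK2, the kinase below p38, had -0.05 ± 0.08.

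Among 20 tested inflammatory genes of other kinds, 2 were called higher and none lower, which is 10% of them beside 0.277% of all genes. Nothing is read from this share, since the list was made with earlier results of these data known. The fold changes had a median of 0.07, with 15 higher and 5 lower. IL11, a cytokine of the interleukin 6 family, rose from 8.44, 6.90 and 9.40 FPKM in shNC to 23.5, 22.7 and 23.2 FPKM in shARHGEF2 (1.39 ± 0.12 SE, adjusted p = 0.00479, limma). S100A9, a calcium-binding alarmin, rose from 6.13, 6.47 and 6.79 FPKM to 13.2, 15.2 and 13.8 FPKM (1.01 ± 0.10 SE, adjusted p = 0.0115, limma). For both, shNC replicate 3 stayed with the other controls, unlike for CXCL8. The call of S100A9 was lost without shARHGEF2 replicate 3, and both calls were lost with no filter on low values and with a replicate block. IL6 stood at -0.26 ± 0.14 (SE), the urokinase receptor PLAUR at 0.48 ± 0.10 (adjusted p = 0.110, limma) and TNFAIP2 at 0.01 ± 0.12.

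**Figure D4:**
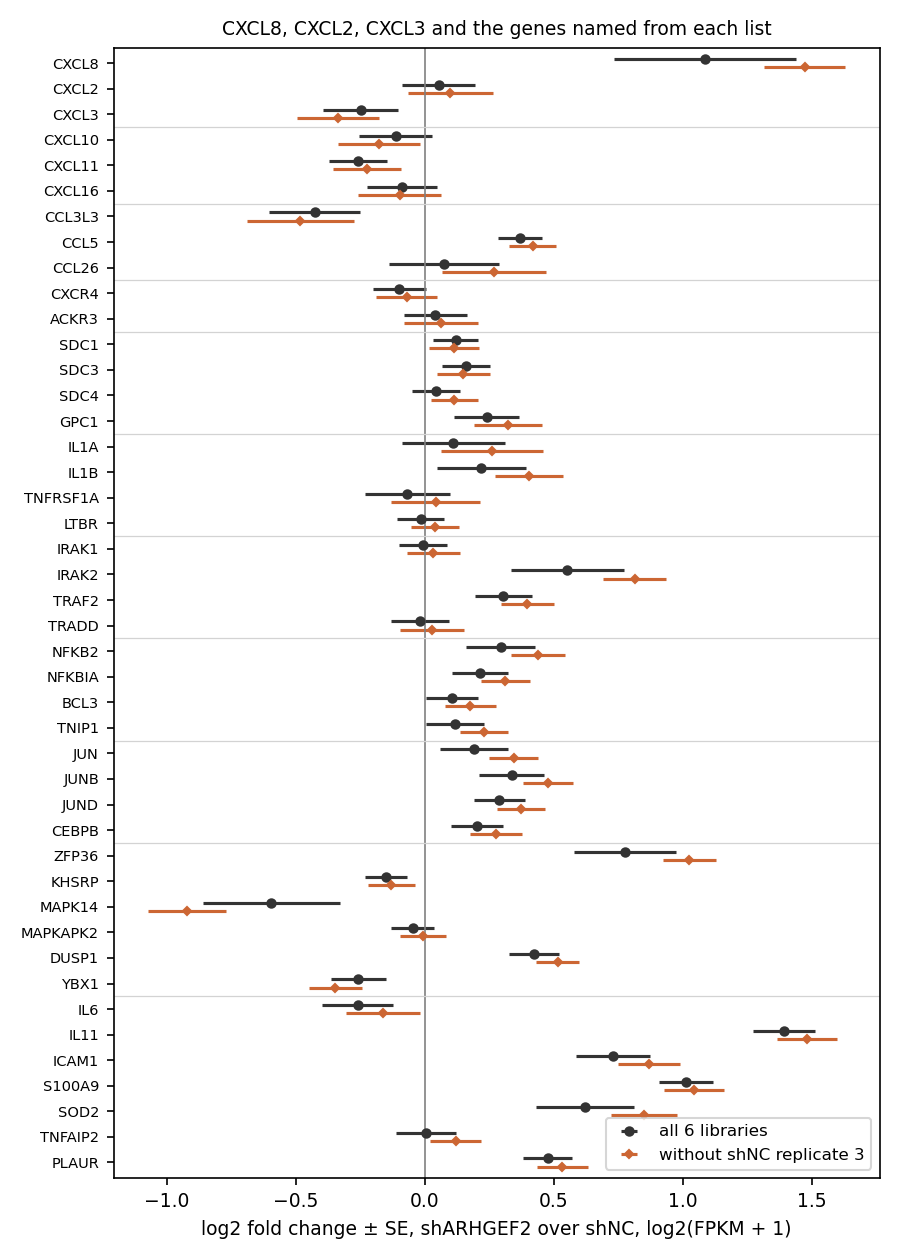
Fitted log2 fold change, shARHGEF2 over shNC, with its standard error (horizontal axis, log2(FPKM + 1) scale) of CXCL8, CXCL2, CXCL3 and the genes named from each list (vertical axis, lists separated by grey lines), with all 6 libraries (dark circles) and without shNC replicate 3 (orange diamonds). CXCL8 goes from 1.085 to 1.47, while IL11 (1.39 to 1.48) and S100A9 (1.01 to 1.04) move less.

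Over all 105 tested genes of these lists, the median log2 fold change was 0.08, beside -0.002 over all genes, and 2 were called (1.9%). With shARHGEF2 replicate 3 left out 1 was called, and with any other library but shNC replicate 3 left out 2 were. Without shNC replicate 3, 8 were called, where 0.83% of all genes were. Besides IL11 and S100A9 these were 5 higher and 1 lower, named here because they passed in that fit and thus after their values were seen. ZFP36, the decay factor of AU-rich messenger RNAs, had a log2 fold change of 1.03 ± 0.10 (SE, adjusted p = 0.0164, limma) in that fit, against 0.78 ± 0.20 with all libraries. ICAM1, an adhesion molecule for leukocytes, had 0.87 ± 0.12, against 0.73 ± 0.14 with all libraries. SOD2, a mitochondrial superoxide dismutase, had 0.85 ± 0.13, against 0.62 ± 0.19. IRAK2 had 0.82 ± 0.12 and DUSP1 0.52 ± 0.08, against the values above. The lower gene was MAPK14, the p38 kinase, with -0.92 ± 0.15, against -0.595 ± 0.27 with all libraries, where its groups overlapped (adjusted p = 0.384, limma). Of these 6 genes, 0 passed with all libraries. Nothing is read from their calls, since this fit was picked out with the levels of shNC replicate 3 known.

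shNC replicate 3 was the highest of the controls in 61 of the 105 genes (58.1%), beside 29.2% of all genes tested, and it was the lowest control in 18. Its level over the mean of the other controls was 2.27 for CXCL8. This ratio was 1.77 for IRAK2, 1.73 for ZFP36, 1.77 for SOD2, 1.39 for ICAM1, 1.21 for DUSP1 and 0.436 for MAPK14. Apart from CXCL8, these genes passed only in the fit without this library, so nothing is read from their ratios. The part of this library's own state in the CXCL8 difference was not tested.

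**Figure D5:**
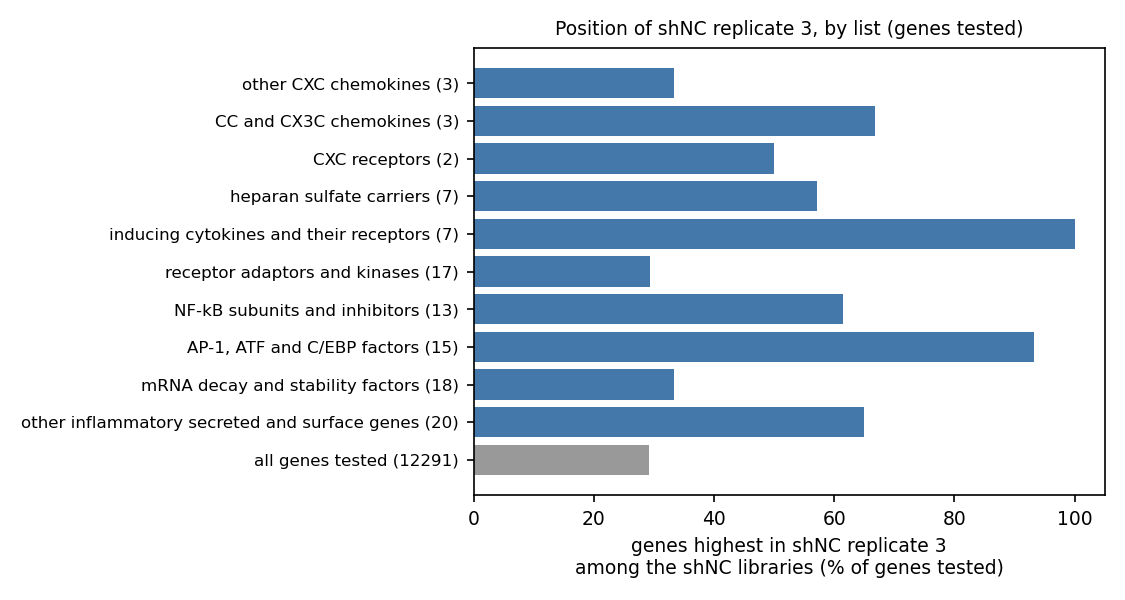
Share of tested genes (horizontal axis, percent) for which shNC replicate 3 was the highest of the 3 shNC libraries, for each pathway list (blue; number of genes tested in parentheses) and for all genes tested (grey, 29.2%). The share is 100% for inducing cytokines and their receptors (7 genes) and 93.3% for AP-1, ATF and C/EBP factors (15 genes), and 29.4% for receptor adaptors and kinases (17 genes).

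Markers of other cells that secrete or answer to these chemokines were low in the main. Of 14 neutrophil and macrophage markers, only CD68, a lysosomal protein, reached 1 FPKM (60.4 to 87.8), while the leukocyte marker PTPRC stayed at or under 0.0239 and the monocyte receptor CD14 at or under 0.279. The summed level of that list was 61.1 to 88.3 FPKM in shNC and 75.8 to 86.0 FPKM in shARHGEF2. Of 8 endothelial markers only EGFL7 reached 1 FPKM (22.5 to 32.9), with CDH5 at or under 0.0246 and VWF at or under 0.0261. Their sum, nearly all of it EGFL7, was 23.2 to 30.0 FPKM in shNC and 32.5 to 33.8 FPKM in shARHGEF2. It did not overlap, as was the case for 20.5% of single genes tested, and its part in the CXCL8 difference was not tested. Of 8 fibroblast markers 4 reached 1 FPKM, LUM, COL1A1, COL3A1 and DCN, with COL1A2 and PDGFRA at or under 0.0453, and the sum was 39.9 to 52.7 FPKM in shNC and 38.7 to 45.7 FPKM in shARHGEF2. No listed marker was at 0 in every library, but that held for all 27605 genes with a row.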

How the data were processed

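RNA of 6 libraries (3 shNC, 3 shARHGEF2, grouped by their labels) was sequenced as paired reads of 150 bases. The deposited table gives FPKM per gene, computed by the authors, with no further scaling here. The submitters' processing notes name cutadapt 1.9, HISAT2 2.0.4, UMI-tools, StringTie 1.3.4d, DESeq2, edgeR and the build hg19. The table also holds the authors' own comparison (ratio of means, its log2, p-value, q-value and a mark of direction), which was not used.

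The 12291 genes whose mean reached 0.5 FPKM were tested with limma 3.58.1 (R 4.3.3, trend and robust variances, statmod 1.5.0) on log2(FPKM + 1), all 6 libraries in 1 fit, without a block, and adjusted by the Benjamini-Hochberg method (called under 0.05). The script was tested on simulated data. A rough number of reads per library was read off the steps between low values of FPKM times length (genes with 1 transcript, 600 nt or longer), so no interval is given per gene. Positions, transcripts and coding sequences came from GENCODE 29, where 94.7% of the 112516 listed transcripts were found, and promoters from RefSeq (all 4 genes matched), both on GRCh38. Alignments were made with Biopython 1.88.

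The members, the 10 pathway lists, the 4 marker lists and the rules were chosen with earlier results of these data known. Named were the members, ARHGEF2, the called genes of each list or otherwise up to 4 of highest mean, and the 3 genes with the highest Pearson's r with each member. Alternatives were a pseudocount of 0.1, other filters, quantile normalization, scaling to the 75th percentile, limma without trend and robust variances, a replicate block and each library left out. Protein sequences were not used here. A gene that the naming rule would name is counted in its list but not reported here.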

Additional observations from a re-analysis of the deposited data

How the results depend on the processing

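The count of genes called in the whole table, 34 (24 higher), was 39 with a pseudocount of 0.1 and 25 with scaling to the 75th percentile. It was 1 with no filter beyond a value above 0, 54 (39 higher) with at least 1 FPKM in 3 or more libraries, 19 with quantile normalization and 7 in limma without trend and robust variances. Leaving out each library gave 6 to 102, the highest without shNC replicate 3 and the lowest without shARHGEF2 replicate 3.

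Of the pathway lists, 2 genes were called, 1 to 8 with each library left out, and 0 of 142 in limma with no filter (26 at an unadjusted p under 0.05). With the replicate number as a replicate block, 0 genes were called in the whole table (1976 at an unadjusted p under 0.05, limma) and 0 in the lists (26). Libraries with the same number had residual correlations of 0.184, 0.159 and -0.105 and share only a number. The ARHGEF2 fold change stayed at -1.467, with adjusted p = 0.0701 in limma without the filter and 0.0716 with the block, and ran from -1.528 to -1.42 with each library left out, called each time.

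The CXCL8 fold change ran from 0.885 to 1.473 with each library left out, that of CXCL2 from -0.042 to 0.168, that of CXCL3 from -0.362 to -0.176, and the log2 ratio of the summed FPKM from 0.733 to 1.354. CXCL8, CXCL3 and the sum kept their sign under every alternative run, while CXCL2 did not. The CXCL8 value moved most without shNC replicate 3, from 1.085 ± 0.353 (SE) to 1.473 ± 0.156. With no read counts, depth limits CXCL3 most.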
